A study of Mus musculus with 6 samples.

Results

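Myelin is the insulating sheath that Schwann cells wrap around peripheral axons, and it is built from a small set of dedicated proteins and lipids. Mbp and Pmp22 belong to its compact layers, while Cnp, Mag and the connexin encoded by Gjc3 lie in its uncompacted parts, and Mal and Pllp encode related tetraspan proteins of lipid-rich membrane. Wrapping begins around birth in mouse nerves. Before that stage, Schwann cell precursors and the glia around sensory neurons already transcribe several of these genes at a lower level.

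The 8 genes Mbp, Pmp22, Mal, Cnp, Mag, Pllp, Gjc3 and Ncmap were taken by symbol from the 17971 genes of an RNA-seq table of mouse dorsal root ganglia at embryonic stage E13.5. All 8 were found, and 7 had enough counts to be among the 14338 genes tested. Ncmap did not. The 3 cKO libraries came from male embryos of genotype Wnt1-cre+/-;Ybx1fl/fl. The 3 Ctrl libraries came from male Ybx1fl/fl littermates, so both groups carry the floxed alleles and only cKO carries Cre. Wnt1-Cre acts in the neural crest, the source of both the neurons and the glia of these ganglia, and not in their blood or endothelial cells. Cre itself and loss of Ybx1 cannot be told apart, since no group had Cre with intact Ybx1.

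Each library held 16464264 to 17446385 estimated counts. Ybx1, which encodes an RNA-binding cold-shock protein, stood at 137, 122 and 108 normalised CPM (a gene's count scaled to library size) in cKO, against 927, 809 and 817 in Ctrl, so each library went with its label. Sensory neuron markers summed to 11746 to 13466 TPM (a gene's share of transcripts, a level per transcript length) in cKO and 12591 to 13127 in Ctrl, and those of glia to 4512 to 4697 in cKO and 4280 to 4313 in Ctrl. Libraries of the same replicate number deviated together, so differences are given without and, where it changes the call, with the number as a pair. Erythroid marker TPM was highest in cKO replicate 1 (59064, against 16193 to 27553 in the other 5).

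In level, Mbp, Pmp22 and Cnp were the most abundant of the 8 in every library. Mbp averaged 110 ± 9.84 TPM in cKO and 82.7 ± 6.97 in Ctrl, Pmp22 84.2 ± 12.4 in cKO and 82.9 ± 2.01 in Ctrl, and Cnp 81.1 ± 2.41 in cKO and 70.5 ± 1.57 in Ctrl (SD, n = 3 each). Mag followed, at 12.9 ± 0.413 TPM in cKO and 11.2 ± 0.250 in Ctrl, and Mal stood at 12.55 ± 1.60 in cKO and 9.43 ± 1.08 in Ctrl. Gjc3 stood lower, at 2.80 ± 0.483 TPM in cKO and 1.58 ± 0.330 in Ctrl, and Pllp and Ncmap stayed under 1 TPM in all 6 libraries. Over the 6 libraries, both groups pooled, the ranges of Mbp, Pmp22 and Cnp overlapped, as did those of Mag and Mal and those of Pllp and Ncmap. Within a library, Mbp exceeded Pmp22 in 4 of 6 and Pmp22 exceeded Cnp in 5 of 6. Mag exceeded Mal in 4 of 6, and Pllp exceeded Ncmap in 5 of 6. The ranges of Cnp and Mag, of Mal and Gjc3, and of Gjc3 and Pllp did not overlap. Together the 8 genes made up 308, 327 and 277 TPM in cKO, against 254, 269 and 256 in Ctrl.

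For the comparison of cKO with Ctrl, the fit planned as the main one left the pairing out, and the paired fit was an alternative. In the paired fit 4 of the 7 tested genes rose, namely Gjc3, Mal, Mbp and Cnp, and none fell. That was 4 of 7, where 1.76% of all genes tested were called higher, 3.56% lower and 5.33% in either direction in the same fit. Without the pairing none of the 7 passed an adjusted p of 0.05, where 0.112% of all genes were called higher, 0.37% lower and 0.481% in either direction. Of the 7, 4 had an unadjusted p under 0.05 in that fit, where 10.7% of all genes tested did. DESeq2 called 2 of the 7, Mbp and Gjc3, among 183 genes called in all. With limma-voom none of the 7 was among the 53 genes called. The median log2 fold change of the 7 was 0.20, beside 0.00 over all genes tested. In normalised CPM all cKO libraries lay above all Ctrl libraries for 4 of the 7, where 7.83% of all genes tested did so and 8.77% lay the other way. In 5 of the 7 cKO exceeded Ctrl in every same-numbered pair, where 19.6% of all genes did. More cells of a type and more RNA per cell cannot be told apart in tissue RNA, here and in all that follows.

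**Figure D1:**
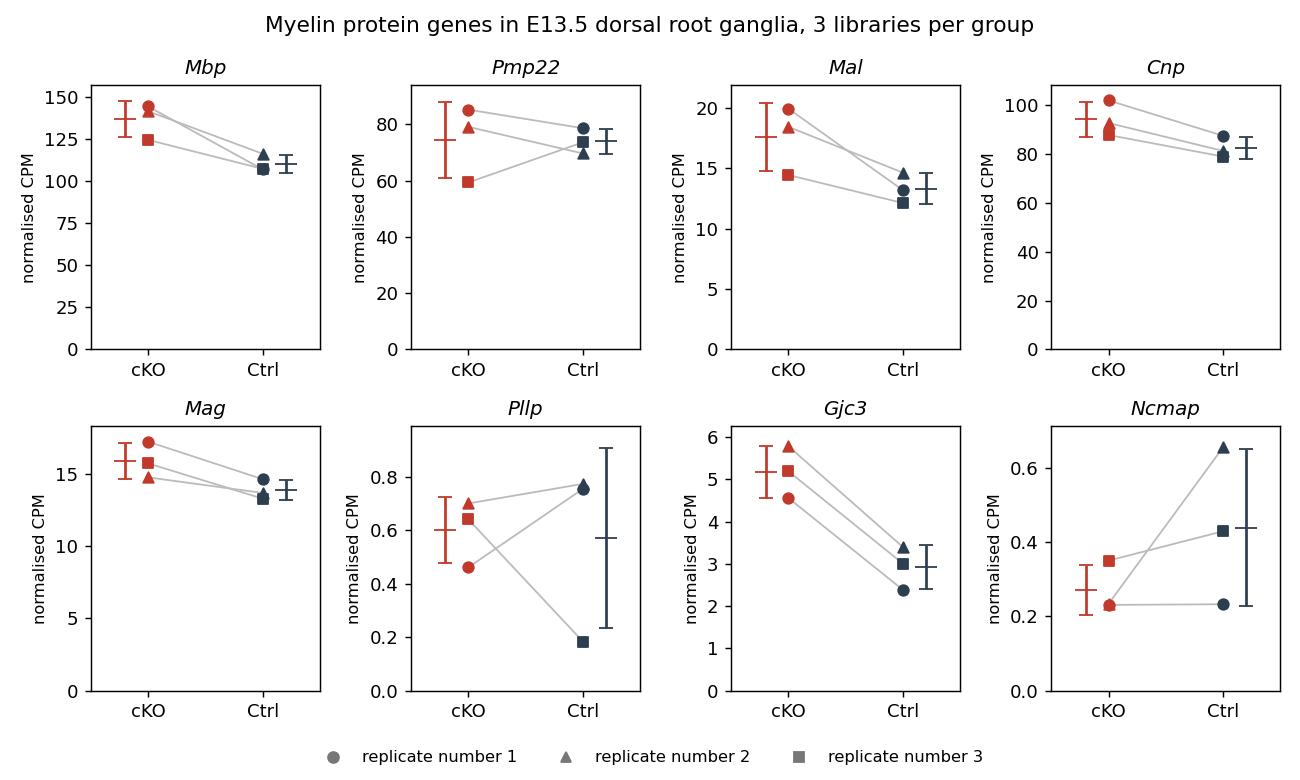
Normalised CPM of the 8 genes in each library, cKO at the left and Ctrl at the right of each panel, with grey lines joining libraries of the same replicate number and bars showing mean and SD (n = 3). Mbp, Cnp, Mag and Gjc3 lay higher in all 3 cKO libraries than in any Ctrl library, while Pmp22, Mal, Pllp and Ncmap overlapped.

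Mbp encodes myelin basic protein, which holds the cytoplasmic faces of the compact sheath together. The gene lies on chromosome 18 (82475091 to 82585637, plus strand, GRCm38). It had 144, 142 and 124 normalised CPM in cKO, against 107, 116 and 107 in Ctrl. The lowest cKO library stood above the highest Ctrl library. Its log2 fold change was 0.31 (SE 0.08, edgeR's adjusted p 0.112), and with the pairing 0.31 (SE 0.05, adjusted p 0.00329). The same-numbered pairs differed by 0.43, 0.28 and 0.21 on the log2 scale, all in one direction. Mbp passed in each of the 7 paired fits tried, with adjusted p from 0.000224 to 0.0335, and in 2 of 17 without the pairing (0.0159 to 0.818).

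The difference in Mbp was wider in TPM than in counts. On the log2(TPM + 0.5) scale it was 0.41, beside 0.31 for counts. TPM divides by a transcript length that the authors' software averages over the isoforms it finds, and the count divided by FPKM (a count scaled to length and library size) returns that length. The implied length of Mbp was 2191, 2167 and 2276 bases in cKO, against 2321, 2326 and 2392 in Ctrl. Every cKO value was below every Ctrl value, and 5.47% of 9905 genes measured this way showed that arrangement. Mal showed it too, at a mean of 2479 bases in cKO and 2487 in Ctrl, a difference of -0.349%. For Mbp the mean difference was -5.78%, and 0.727% of the 9905 genes had a larger shift in either direction. It did not pass over all genes (limma adjusted p 0.768, and 0.325 with the pairing), and none of the 9905 genes did in either fit. At an unadjusted p under 0.05 limma counted 391 genes, and 507 with the pairing. The Mbp locus makes both the classic myelin transcripts and, from an upstream start, the golli transcripts that neurons and immune cells also use. The annotation lists 16 transcripts from 354 to 4797 bases (GENCODE M21), and gene totals do not show which of them changed. The measure was chosen after the values were seen.

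**Figure D2:**
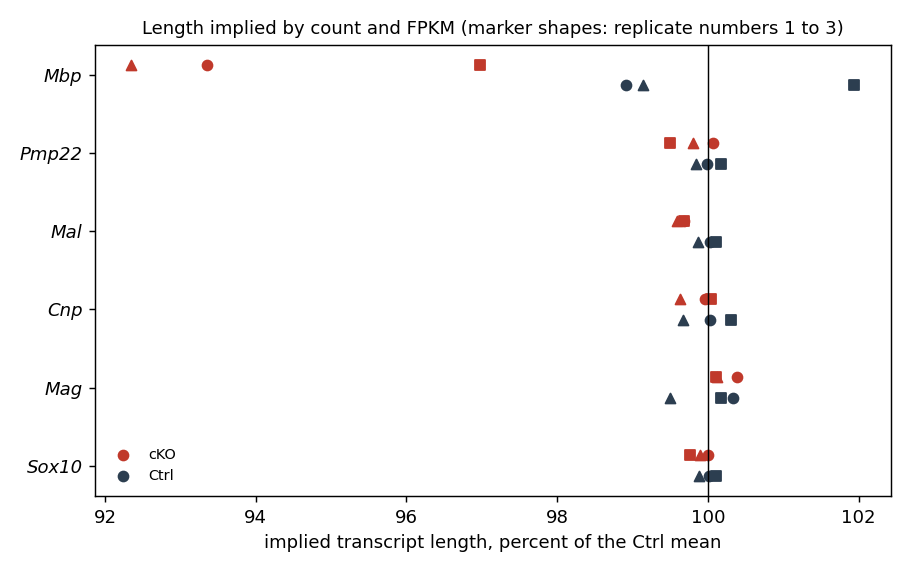
Transcript length implied by count and FPKM, as a percentage of the Ctrl mean, for 5 of the myelin protein genes and for Sox10; each point is a library, cKO drawn above Ctrl. Mbp alone among these 6 genes spread over several percent, with cKO at the shorter end.

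Pmp22, a tetraspan protein of compact peripheral myelin whose dosage underlies inherited neuropathy, was of similar abundance to Mbp and did not pass the test in either fit. The gene is on chromosome 11 (63128982 to 63159547, plus strand). Its normalised CPM was 85.2, 79.1 and 59.3 in cKO, against 78.6, 69.6 and 73.6 in Ctrl. The cKO libraries held both the highest and the lowest value of the 6, and the groups overlapped. The log2 fold change was 0.01 (SE 0.11, adjusted p 0.983). The pairs split, at 0.12 and 0.18 for numbers 1 and 2 and -0.31 for number 3, and the sign of the fold change turned without cKO replicate 1 (-0.10), cKO replicate 2 (-0.03) or Ctrl replicate 2 (-0.03). Pmp22 is also transcribed by many cells outside nerves, mesenchyme included. The 12 mesenchyme and fibroblast markers summed to 848 to 910 TPM in cKO and 778 to 914 in Ctrl, and none of the 11 tested was called. Their part in the Pmp22 level was not tested. RefSeq lists 9 transcripts for the gene, and counts per gene do not separate the start used in Schwann cells from those used elsewhere.

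Mal encodes a raft-associated proteolipid that carries membrane cargo in glia and epithelia. Its locus is on chromosome 2 (127633226 to 127656695, minus strand). Its normalised CPM was 19.96, 18.5 and 14.5 in cKO, against 13.2, 14.6 and 12.1 in Ctrl. Replicate 3 of cKO fell just under replicate 2 of Ctrl, so the groups overlapped, although every cKO library exceeded its own pair. Its log2 fold change was 0.40 (SE 0.13, adjusted p 0.234), and with the pairing 0.40 (SE 0.09, adjusted p 0.0194). The paired call was lost without the number 1 libraries (adjusted p 0.0798) and without the number 2 libraries (0.0611).

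Pllp, the plasmolipin gene and a relative of Mal, had 8, 12 and 11 counts in cKO, against 13, 13 and 3 in Ctrl. It lies on chromosome 8 (94674895 to 94696242, minus strand). Ctrl replicate 3 was the lowest of the 6 and the other 2 Ctrl libraries the highest. The sums were 31 counts in cKO (exact 95% Poisson interval 21.1 to 44.0) and 29 in Ctrl (19.4 to 41.6), intervals that cover counting error only. The log2 fold change was 0.06 with an SE of 0.45 (adjusted p 0.978), so a difference of the size seen in Mal was not detectable at this depth. The annotated antisense gene Gm45767 overlaps 54.2% of its exon bases, and the sources used here do not say that counting was by strand, so the reads may come from either gene.

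Ncmap encodes a membrane protein of uncompacted Schwann cell myelin. It had 4, 4 and 6 counts in cKO, against 4, 11 and 7 in Ctrl, and fell short of the count filter. It lies on chromosome 4 (135369576 to 135398240, minus strand). The sums were 14 counts in cKO (exact 95% Poisson interval 7.65 to 23.5) and 22 in Ctrl (13.8 to 33.3). It was the one gene of the 8 with a lower mean in cKO, at 0.377 ± 0.0896 TPM against 0.620 ± 0.262 in Ctrl (SD, n = 3), and the groups overlapped. With no count filter its log2 fold change was -0.68 (adjusted p 0.784).

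Cnp encodes a cyclic nucleotide phosphodiesterase, an early protein of myelinating glia that keeps cytoplasmic channels in the sheath open. It lies on chromosome 11 (100574909 to 100591875, plus strand). Its normalised CPM was 102, 92.7 and 87.8 in cKO, against 87.5, 81.3 and 79.0 in Ctrl. The groups were apart by a narrow margin, cKO replicate 3 against Ctrl replicate 1. Its log2 fold change was 0.19 (SE 0.08, adjusted p 0.396), and with the pairing 0.19 (SE 0.05, adjusted p 0.0427). The paired call was lost without the number 1 libraries (adjusted p 0.0628) and without the number 2 libraries (0.343). Dnajc7, on the opposite strand, covers 4.23% of the exon bases of Cnp and had a log2 fold change of -0.06 (adjusted p 0.840).

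Mag encodes myelin-associated glycoprotein, a sialic-acid-binding adhesion protein at the border of axon and sheath. It lies on chromosome 7 (30899175 to 30914922, minus strand). Its normalised CPM was 17.2, 14.8 and 15.7 in cKO, against 14.6, 13.7 and 13.3 in Ctrl. All 3 cKO libraries were above all 3 Ctrl libraries, cKO replicate 2 by little. The log2 fold change of 0.20 (SE 0.10, adjusted p 0.514) was as large as that of Cnp, but Mag did not pass with the pairing either (SE 0.09, adjusted p 0.234).

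Gjc3, a connexin gene of Schwann cells and oligodendrocytes, had the largest fold change of the 7. Gjc3 is on chromosome 5 (137950992 to 137963098, minus strand). Its estimated counts were 79.0, 98.7 and 89.0 in cKO, against 41.3, 57.2 and 49.2 in Ctrl. No value lay between 57.2 and 79.0, so the groups stood well apart. In normalised CPM it averaged 5.18 ± 0.613 in cKO and 2.93 ± 0.510 in Ctrl (SD, n = 3), a 1.77-fold difference. The log2 fold change was 0.82 (SE 0.18, adjusted p 0.0715), and with the pairing 0.82 (SE 0.16, adjusted p 0.00634). The pairs differed by 0.94, 0.77 and 0.79 on the log2 scale. Gjc3 passed in each of the 7 paired fits tried (adjusted p 0.00249 to 0.0406) and in 4 of 17 without the pairing (0.0128 to 0.568). Its estimates held decimals in 4 of 6 libraries, so part of its reads was assigned by estimation.

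**Figure D3:**
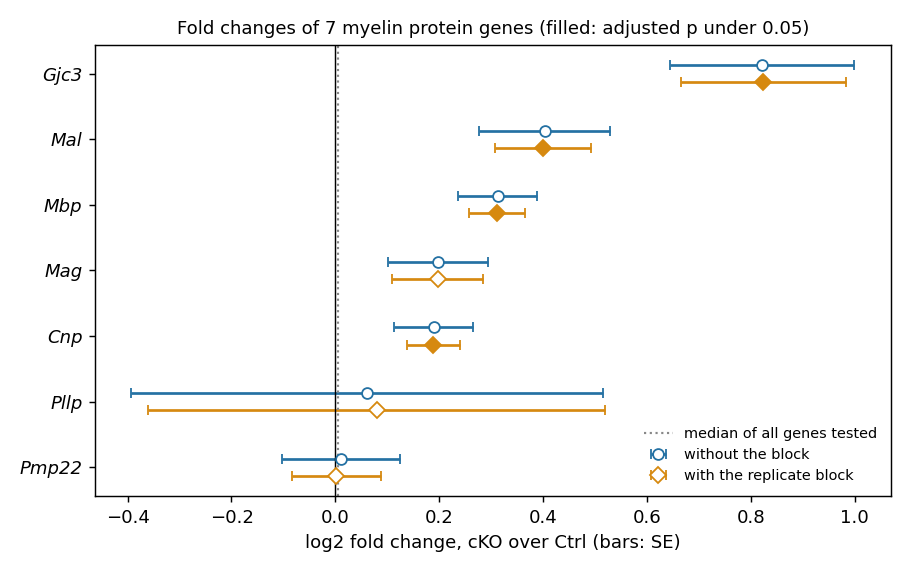
Log2 fold change of cKO over Ctrl with its SE for the 7 genes tested, without the pairing (circles) and with it (diamonds); filled symbols mark an adjusted p under 0.05 over all genes. The estimates barely move between the fits, while the SEs shrink, and Gjc3 lies farthest from the all-gene median.

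Sox10, a transcription factor that activates myelin genes in glia, was itself higher in cKO with the pairing (log2 fold change 0.19, SE 0.05, adjusted p 0.0271; without it 0.454). Expressed per 100 Sox10 counts of the same library, a ratio that needs no scaling between libraries, Cnp stood at 36.7, 35.8 and 35.0 in cKO and 34.05, 36.1 and 38.0 in Ctrl. Mag stood at 6.21, 5.71 and 6.27 in cKO and 5.70, 6.08 and 6.40 in Ctrl. For both genes the groups coincided, with log2 differences of -0.01 and 0.00. Mbp per 100 Sox10 counts was 52.0, 54.7 and 49.6 in cKO and 41.6, 51.6 and 51.6 in Ctrl, so only Ctrl replicate 1 stood apart.

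Gjc3 alone of the 6 genes kept separate groups in this ratio, at 1.64, 2.23 and 2.07 per 100 Sox10 counts in cKO and 0.934, 1.51 and 1.45 in Ctrl. The log2 difference was 0.63 (two-sided exact permutation p 0.1, the smallest that 3 against 3 libraries allow). It was 0.74 relative to Erbb3, the neuregulin receptor gene of the same glia, again with groups apart. The near-level ratios of Cnp and Mag depended on the gene they were set against, since relative to Erbb3 both differed by 0.11, and Mbp by 0.23, all with overlapping groups (exact p 0.6, 0.5 and 0.2). Mal differed by 0.20 and Pmp22 by -0.20 relative to Sox10, both with overlapping groups (exact p 0.3 and 0.2). A difference between Gjc3 and the other genes was not tested.

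**Figure D4:**
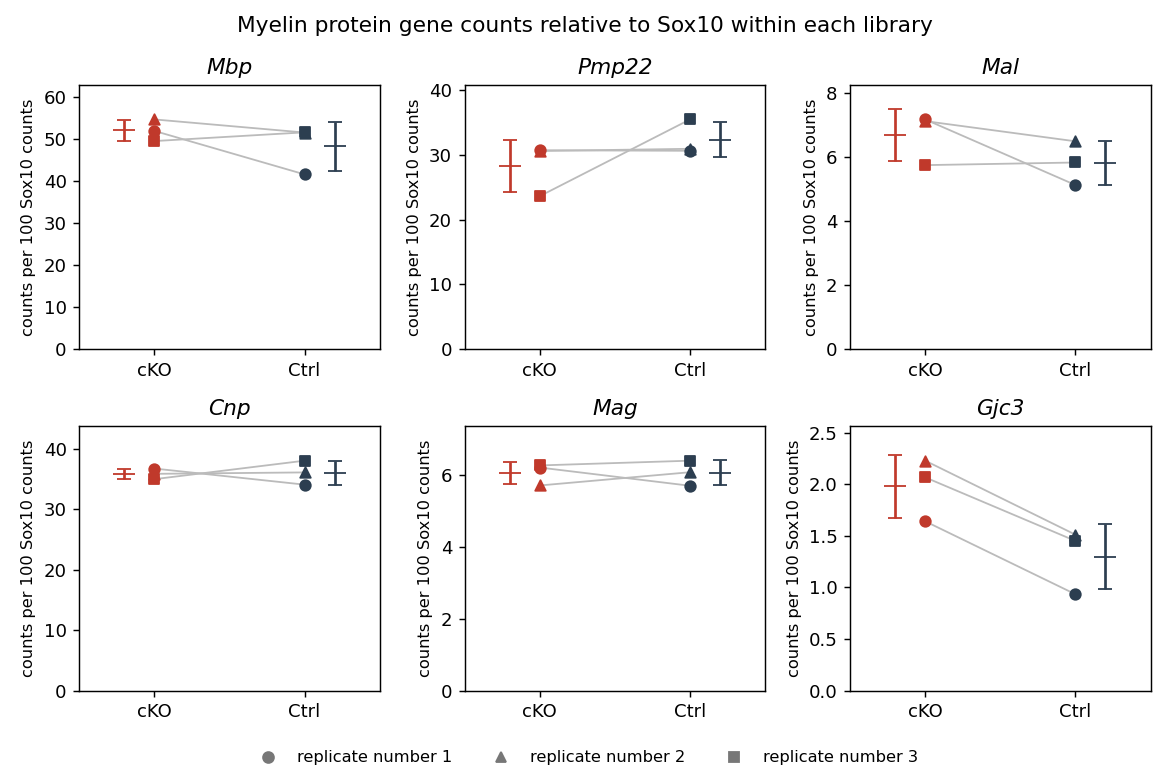
Estimated counts of 6 myelin protein genes per 100 Sox10 counts in each library, cKO left and Ctrl right, with lines joining the same replicate number and bars showing mean and SD (n = 3). Gjc3 keeps its 3 cKO libraries above its 3 Ctrl libraries, whereas Cnp and Mag lie level.

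Promoters are shown for Cnp, Mag and Gjc3, a choice made with their counts per Sox10 count already known. For Mag the first of 3 annotated windows is printed. Each is the 250 bases before an annotated start (RefSeq, GRCm38.p6), read 5′ to 3′ on the gene's strand. Capitals mark the SOX-type letters ACAAAG or ACAATG on either strand, where the reverse strand reads CTTTGT or CATTGT. The windows are chr11:100574689-100574938 (plus), chr7:30914864-30915113 (minus) and chr5:137963099-137963348 (minus).
Cnp: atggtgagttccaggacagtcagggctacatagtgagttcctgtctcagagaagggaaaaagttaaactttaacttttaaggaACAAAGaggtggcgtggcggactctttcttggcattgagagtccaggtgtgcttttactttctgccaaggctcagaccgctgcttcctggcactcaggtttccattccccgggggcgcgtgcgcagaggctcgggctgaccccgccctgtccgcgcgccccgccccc
Mag: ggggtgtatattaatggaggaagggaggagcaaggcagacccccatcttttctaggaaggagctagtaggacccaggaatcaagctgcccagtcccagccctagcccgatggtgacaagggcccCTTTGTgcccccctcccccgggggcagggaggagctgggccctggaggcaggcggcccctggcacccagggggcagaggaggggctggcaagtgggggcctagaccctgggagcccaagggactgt
Gjc3: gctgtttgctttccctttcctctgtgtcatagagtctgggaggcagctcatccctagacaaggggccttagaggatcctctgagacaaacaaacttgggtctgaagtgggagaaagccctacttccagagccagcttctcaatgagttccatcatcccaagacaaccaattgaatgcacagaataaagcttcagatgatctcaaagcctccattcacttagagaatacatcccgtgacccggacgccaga
In the windows printed, Cnp and Mag hold 1 match each, 167 and 126 bases before the start, and Gjc3 holds none. The windows of Pmp22, Mal, Pllp and Ncmap, not printed, hold none either. Whether a match goes with the counts per Sox10 count was not tested. The same Mag site lies 67 bases before the start of its second, overlapping window, and the last Mag window holds no match. Of the 3 Mag starts, that of the last window is the one whose following bases were also found in a GENCODE transcript. Of the 13 windows of the 7 genes with a promoter in the table, 3 hold a match, 2 of them at that Mag site, and 25.2% of 32851 promoter windows of this length do, so the share is near the background. The EGR-type letters GCGTGGGCG and GCGGGGGCG, searched on both strands for the factor Egr2, matched in none of the 7 genes and in 3.06% of all windows. These letters are descriptions of sequence only.

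Further myelin protein genes were read from a fixed list of 25, of which 20 were tested. With the pairing 5 were higher and 2 lower, and without it 1 was higher. The 3 on the list that were not in the table used are not analysed here. Plekhb1, a glial pleckstrin-homology gene, rose by 0.43 on the log2 scale (paired adjusted p 0.000869), and Ndrg1, linked to a demyelinating neuropathy, rose by 0.27 (0.00816). Drp2, which anchors the periaxin complex of the sheath, fell by 0.42 (paired adjusted p 0.0022). Cldn19, a tight junction gene of Schwann cells called in both fits (3.36, paired adjusted p 3.71e-05), lies close to Ybx1 on chromosome 4. Its level was low, at 46, 27 and 46 counts in cKO against 5, 2 and 4 in Ctrl. Whether its position bears on the difference was not tested.

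Genes that serve the same sheath in other roles were read against the 5.33% of all genes called in either direction with the pairing. Of 24 genes of transcriptional control, 1 was higher and 3 lower with the pairing and none without it. Sox10 rose, while Id4, Id2 and Jun, factors associated with immature or unmyelinated glia, fell by 0.29, 0.23 and 0.20 (paired adjusted p 0.0153, 0.0288 and 0.0448). Egr2, the factor needed for myelination, had 1.43, 1.62 and 2.27 TPM in cKO and 2.10, 1.83 and 2.17 in Ctrl, and did not pass (log2 fold change -0.20, adjusted p 0.755; paired 0.565). Of 13 genes of myelin lipid synthesis, 1 was lower with the pairing, the fatty acid desaturase gene Scd2 (-0.18, paired adjusted p 0.0232), and none was higher. Among the 15 genes of neuregulin and adhesion receptor signals to Schwann cells none was called in either fit, and among 14 relatives of the 8 genes none was either. Cmtm5, the most abundant relative, had a log2 fold change of 0.04.

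Markers of the cell types present give the setting for these values. The summed TPM of the 19 markers of Schwann cell precursors and satellite glia, given above, did not overlap between cKO and Ctrl. Abundant genes weigh most in such a sum. Fabp7 averaged 1868 TPM in cKO and 1825 in Ctrl, and Apoe 746 in cKO and 605 in Ctrl. Without the pairing 15 of the 19 had a positive log2 fold change, with a median of 0.13 over the 19. With the pairing 6 of the 19 were higher, among them S100b (log2 fold change 0.44, paired adjusted p 0.0204) and Cdh19 (0.36, 0.0196). Itga4 was lower (-0.25, 0.00846). Sox10, already described, is on this list too. Without the pairing none was called. Sensory neuron markers included 6 of 16 that were lower with the pairing, such as Ret (-0.36, paired adjusted p 0.000665), and none higher. The 6 oligodendrocyte lineage markers measured summed to 124 to 141 TPM in cKO and 114 to 137 in Ctrl, nearly all of it from Cldn11 (118 to 136 TPM in cKO and 110 to 133 in Ctrl), a tight junction gene that other cells use too. The other 5 were each under 3 TPM, and Olig2, which defines that lineage, had 0 to 2 counts in each library.

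The 14 macrophage markers summed to 217 to 307 TPM in cKO and 188 to 207 in Ctrl, ranges that did not overlap, and were highest in cKO replicate 1. All 14 had a positive log2 fold change, with a median of 0.41, beside 0.20 for the 7 myelin protein genes. Of the 14, 1 was called higher with the pairing, C1qb (0.43, adjusted p 0.0133), and none without it. The 9 spinal cord markers measured summed to 2.17 to 3.90 TPM in cKO and 1.67 to 2.38 in Ctrl, highest in cKO replicate 3. In that library Lhx1, Pax2 and Lbx1 had 26, 17 and 9 counts, against 0 to 2 in each other library. Pax6 was not highest there, and Nkx6-1, the most abundant of the 9, was lowest there, at 1.14 TPM. Only 2 of the 9 were tested. Pax6, at a mean of 0.287 TPM, was higher in cKO in both edgeR fits (log2 fold change 2.12, adjusted p 0.0449, paired 0.0107). Of 11 erythroid, 10 endothelial and 7 skeletal muscle markers tested, none was called in either fit. Endothelial markers summed to 327 to 358 TPM in cKO and 335 to 346 in Ctrl, and muscle markers to 13.8 to 19.0 in cKO and 12.1 to 17.7 in Ctrl. The part of these cell types in the myelin gene values was not tested. Without cKO replicate 1 the log2 fold changes of Gjc3, Mal, Mbp and Cnp were 0.91, 0.30, 0.27 and 0.13, and without cKO replicate 3 they were 0.82, 0.52, 0.37 and 0.23.

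The mean profile of the 7 tested genes over the 6 libraries was highest in cKO replicate 2 and lowest in Ctrl replicate 3, where Pllp had 3 counts. Each gene had equal weight in this mean, so Pllp, at 3 to 13 counts, weighed as much as the abundant genes. A profile without Pllp was not computed. Among 11880 other genes with at least 5 CPM, the 5 with the most similar profile were Acp6, Cbr4, Tti1, Gfm1 and Prps1l3 (Pearson r 0.976 to 0.993 across 6 libraries, genes not being replicates). As 119 genes exceeded 0.9 with only 6 libraries, such likeness is a description of these libraries.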

How the data were processed

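RNA-seq values of 6 dorsal root ganglion libraries were used, 3 cKO and 3 Ctrl, made with an mRNA kit from Trizol extracts per the labels. The authors deposited estimated counts, TPM and FPKM per gene, and the submitters' processing notes name RSEM 1.3.1, Bowtie2 2.4.5 and HISAT2 2.2.1 with GRCm38 (mm10), without their roles. No source used here states whether the kit kept strand. The deposited counts, whole in 88.4% to 88.6% of values, were rounded, filtered with filterByExpr (14338 of 17971 genes kept), scaled by TMM and tested with edgeR 4.0.16 (quasi-likelihood, robust, Benjamini-Hochberg adjustment over all genes, threshold 0.05), cKO over Ctrl. limma 3.58.1 tested log values and implied lengths (genes with mean FPKM of at least 5 and each above 1), and DESeq2 1.42.0 was an alternative. The test was also run on simulated data, the outcome of which is not given here and is not used as support for any result.

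Deviations from the group means of same-numbered cKO and Ctrl libraries correlated at 0.328, 0.205 and 0.184 across genes. Libraries of unlike number correlated at -0.264 to 0.118. The numbers were therefore used as pairs, a choice that rests in part on these same data. The deviations are not independent, being centred on means of 3 libraries. The numbers come from the sample titles, and sample codes of the same number share a stem. Nothing says whether a pair is a litter, and the design text calls the samples biological. The 8 genes and all lists were chosen with earlier results of these data known. From each list up to 4 called genes were named by adjusted p, or else the 2 with the highest mean TPM; Egr2 and further genes were picked with their values in view. The length measure, the ratios, the promoter letters and the unfiltered paired fit were added after the values were seen. Poisson intervals are exact at 95%. Sequences are RefSeq, GRCm38.p6, and transcripts are from GENCODE M21 unless RefSeq is named.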

Additional observations from a re-analysis of the deposited data

How the results depend on the processing

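Without the replicate block 69 genes were called between cKO and Ctrl, and 764 with it. The count was 44 with library totals in place of TMM, 183 with DESeq2, 11 and 12 on log2(TPM) with pseudocounts of 0.5 and 0.1, and 128 with no count filter. With the block it was 799 with library totals, 731 with DESeq2 size factors and 863 with no filter. Without the number 1, 2 or 3 libraries it was 731, 8 or 2, and with the block 1252, 260 or 836. Leaving out 1 library gave 18 to 104. Of the 8 myelin protein genes 0 were called at first, 4 with the block and under each of its scalings and with no filter, 2 with DESeq2, 1 with no filter and 0 to 1 with 1 library left out (1 without cKO replicate 1, Gjc3). Without the number 1 libraries 2 were called, and with the block 2, 2 and 4 without numbers 1, 2 and 3. In the other myelin lists 1 gene was called, against 12 with the block, 13 with library totals and 11 with DESeq2 size factors beside the block, 2 with no filter and 13 with the block and no filter. It was 7 without the number 1 and 0 without the number 3 libraries, 15, 4 and 13 with the block without numbers 1, 2 and 3, and 1 to 2 with 1 library left out. The median log2 fold change of the tested genes was 0.20, against 0.26 with limma-voom, 0.23 with a TPM pseudocount of 0.1, 0.26 with a mean of at least 1 CPM, 0.25 and 0.24 without the number 1 and 2 libraries with and without the block, and 0.17 to 0.33 with 1 library left out. Pmp22 turned negative with limma-voom (-0.0037), without the number 1 (-0.049) and number 2 libraries (-0.076), with the block without them (-0.057 and -0.093) and with the block and no filter (-0.0019), and ran from -0.10 to 0.15 with 1 library left out. Pllp turned negative without the number 3 libraries (-0.39, and -0.40 with the block) and ran from -0.34 to 0.33. The cause was not tested. The block changed no other call of the 8 genes. Depth limits Pllp and Ncmap, and Ncmap had a test only with no filter.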

Other observations

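Gpr17, a receptor gene of the oligodendrocyte lineage, was the one call among the 4 tested markers of that lineage. Its estimated counts were 115, 89 and 134 in cKO, against 75, 71 and 66 in Ctrl, and the groups did not overlap. The paired log2 difference was 0.63 (edgeR's adjusted p 0.0255), and without the pairing it was 0.64 (0.139).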
